A study of Mus musculus with 4 samples.

Results

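The proteasome subunit genes are the genes whose array name starts with Psm, followed by a, b, c, d or e and a digit. That rule found 44 gene names among the 36876 on the array, read by 83 probes. A name was tested if a probe of it stood well above background on 2 of 2 arrays in either genotype, and the brightest such probe, by its mean over the 4 arrays, stands for the gene. This held for 43 of the 44 and for 22474 names in all. The 44 names hold 7 subunits of the alpha ring, 7 constitutive beta subunits, 3 immunoproteasome beta subunits, 6 cap ATPases, 11 other cap subunits, 3 assembly chaperones of the cap, 4 activators, and a testis and a thymus form of a core subunit. The remaining name, Psmc3ip, matches the rule but belongs to a recombination factor and not to the proteasome, so it is given apart.

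The RNA of regulatory T (Treg) cells grown in culture was read on 4 Agilent arrays of 1 colour, 2 from Junbfl/fl mice, the controls, and 2 from Junbfl/flCd4-Cre mice. Both genotypes carry floxed Junb alleles and the labels give the strain as C57BL/6. Only the second also expresses Cre recombinase, from the Cd4 promoter, which is active in T cells. The cells had been cultured for 3 days from sorted naive CD4 T cells in 5 ng/ml TGF-β1, with 1 μg/ml anti-CD3, 0.5 μg/ml anti-CD28 and 5 μg/ml each of anti-IFN-γ and anti-IL-4. Ages are not among the labels, nor is it said that replicate arrays stem from separate animals, so p-values cover only the spread between arrays, which may be technical. A level below is the log2 processed signal of a probe minus the log2 of its array's 75th percentile over probes, which lay at 151 and 145 for controls 1 and 2, and at 119 and 101 for the other genotype. A difference is the mean level on the arrays labelled Junbfl/flCd4-Cre minus that on the controls, given with the standard error of the limma fit and n = 2 arrays per genotype.

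Junb was read first, as a check of the groups. Its probe at 87501881 to 87501940 of chromosome 8 (mm9, the build of the array files) had processed signals of 47.2 and 31.7 in controls, but 4.11 and 1.47, not well above background, in the other genotype. A brighter Junb probe at 87500843 to 87500902 read 9791 and 9072 against 1053 and 10078, so that array 2 labelled Junbfl/flCd4-Cre goes against its label there. Which bases of Junb are floxed was not used here, and the main results are also given without that array.

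The proteasome is the protease that degrades ubiquitin-tagged proteins in the cytosol and nucleus. Its core particle is a stack of rings in which alpha subunits form the gate and beta subunits the chamber, and 3 of the beta subunits, the products of Psmb5, Psmb6 and Psmb7, cut peptide bonds. In lymphocytes and in cells exposed to interferon-γ, Psmb8, Psmb9 and Psmb10 take the places of Psmb5, Psmb6 and Psmb7 in the immunoproteasome, which shapes the peptides shown on MHC class I. The regulatory cap binds tagged proteins, removes ubiquitin and unfolds the chain with a ring of ATPases. Activators such as PA28, made of the Psme1 and Psme2 products, open the core without ATP. Activated T cells make and turn over much protein, and proteasome genes are known to be transcribed together, with Nfe2l1 as a factor that raises them when the proteasome is inhibited.

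Most of these genes lie at separate loci, Psmb8 and Psmb9 being neighbours in the MHC. To show what their promoters share, the 250 bases before the RefSeq start site are shown for a constitutive pair and its immunoproteasome partners, Psmb5, Psmb6, Psmb8 and Psmb9, and for Psme1, whose difference stood apart from theirs. Sequences are those of RefSeq's promoter table on GRCm38.p6, 5′ to 3′ on the strand of the gene, with matches to the motifs searched in capitals. They lie at chr14:54617996-54618245 (minus strand) for Psmb5, chr11:70525107-70525356 (plus) for Psmb6, chr17:34197945-34198194 (plus) for Psmb8, chr17:34187331-34187580 (minus) for Psmb9 and chr14:55578244-55578493 (plus) for Psme1.
Psmb5: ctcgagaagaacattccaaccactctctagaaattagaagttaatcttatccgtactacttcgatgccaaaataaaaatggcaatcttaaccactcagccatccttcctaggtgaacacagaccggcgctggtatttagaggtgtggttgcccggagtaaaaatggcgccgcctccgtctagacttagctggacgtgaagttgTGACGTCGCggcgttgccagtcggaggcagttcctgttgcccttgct
Psmb6: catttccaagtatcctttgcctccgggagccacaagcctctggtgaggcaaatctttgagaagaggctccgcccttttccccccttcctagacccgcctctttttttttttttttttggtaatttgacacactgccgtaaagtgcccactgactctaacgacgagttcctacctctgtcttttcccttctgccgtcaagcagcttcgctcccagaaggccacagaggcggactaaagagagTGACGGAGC
Psmb8: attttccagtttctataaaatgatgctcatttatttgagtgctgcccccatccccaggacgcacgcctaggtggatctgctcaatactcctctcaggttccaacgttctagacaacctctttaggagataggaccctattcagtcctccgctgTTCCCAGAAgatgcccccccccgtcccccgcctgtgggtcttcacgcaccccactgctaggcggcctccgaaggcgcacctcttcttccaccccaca
Psmb9: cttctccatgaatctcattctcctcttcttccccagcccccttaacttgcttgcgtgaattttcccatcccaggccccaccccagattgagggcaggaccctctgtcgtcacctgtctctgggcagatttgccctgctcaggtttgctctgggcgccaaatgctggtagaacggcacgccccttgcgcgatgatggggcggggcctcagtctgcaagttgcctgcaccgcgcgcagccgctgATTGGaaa
Psme1: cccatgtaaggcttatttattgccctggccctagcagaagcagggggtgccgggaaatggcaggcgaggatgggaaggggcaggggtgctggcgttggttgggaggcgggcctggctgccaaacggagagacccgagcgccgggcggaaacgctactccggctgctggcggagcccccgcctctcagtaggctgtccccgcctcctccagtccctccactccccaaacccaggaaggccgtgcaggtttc
The capitals mark the core of the antioxidant response element, to which Nfe2l1 and Nfe2l2 bind, as TGACGTCGC in Psmb5 and TGACGGAGC in Psmb6. In Psmb8 they mark a gamma-activated site, as TTCCCAGAA, and in Psmb9 a CCAAT box read on the other strand, ATTGG. Psme1 held no match. The Psmb9 start lies 226 bases from that of Tap1, the peptide transporter gene on the opposite strand.

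Motifs were searched on both strands in the 250 bases of 32851 promoters, of which 37 of the 44 names had an entry. The antioxidant element core TGACNNNGC was found for 4 of 28 core and cap genes, Psmb5, Psmb6, Psmc6 and Psmd12, beside 10.2% of all promoters. The AP-1 site TGANTCA, the motif of JunB and its partners, was found for 0 of 28 and among all members only for the chaperone gene Psmd9, beside 6.75% of all promoters. The interferon-stimulated element core, GAAA followed by any 2 bases and GAAA again, was found for 2 of 28, Psmb3 and Psmd4, beside 2.98%, and the gamma-activated site TTCNNNGAA for 1 of 28, Psmb8, beside 7.02%. The CCAAT box was found for 11 of 28, beside 33.8%. AP-1 and antioxidant matches overlapped in 128 of the promoters, and a match in these windows is a description of letters, not a site.

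On the scale used, every one of the 34 core and cap genes had a lower mean level on the arrays labelled Junbfl/flCd4-Cre (beside 49.5% of all genes), although Psmd2 turned to a difference of 0.09 under quantile normalization and to 0.25 without the first control array. Their median difference was -0.56, which is 1.47-fold lower, and they ranged from -0.88 (Psmb7) to -0.23 (Psmd2). Without array 2 labelled Junbfl/flCd4-Cre the median was -0.52. None passed the test: 0 of the 43 tested members had an adjusted p under 0.05 by limma with Benjamini-Hochberg adjustment over all genes, where 8.46% of all genes did (1.43% lower, 7.03% higher). With the array median as scaling point 36 of the 43 were called, all lower. Beside them 41.9% of all genes were called, 33.1% as lower, and 61.7% of the brightest quintile were called lower. With normexp background 24 of the 43 were called, all lower. Beside them 32.1% of all genes were called, 16.9% as lower, and 44.5% of the brightest quintile were called lower. At an unadjusted p under 0.05, 19 of the 43 members were lower and 0 higher, 18 of them core or cap genes and the other Psmc3ip, beside 19.1% of all genes lower. The levels of the genotypes did not overlap, the controls being higher, for 33 of the 34 core and cap genes, beside 38.5% of all genes. Fewer cells of a type and less RNA per cell cannot be told apart in these bulk samples.

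**Figure D1:**
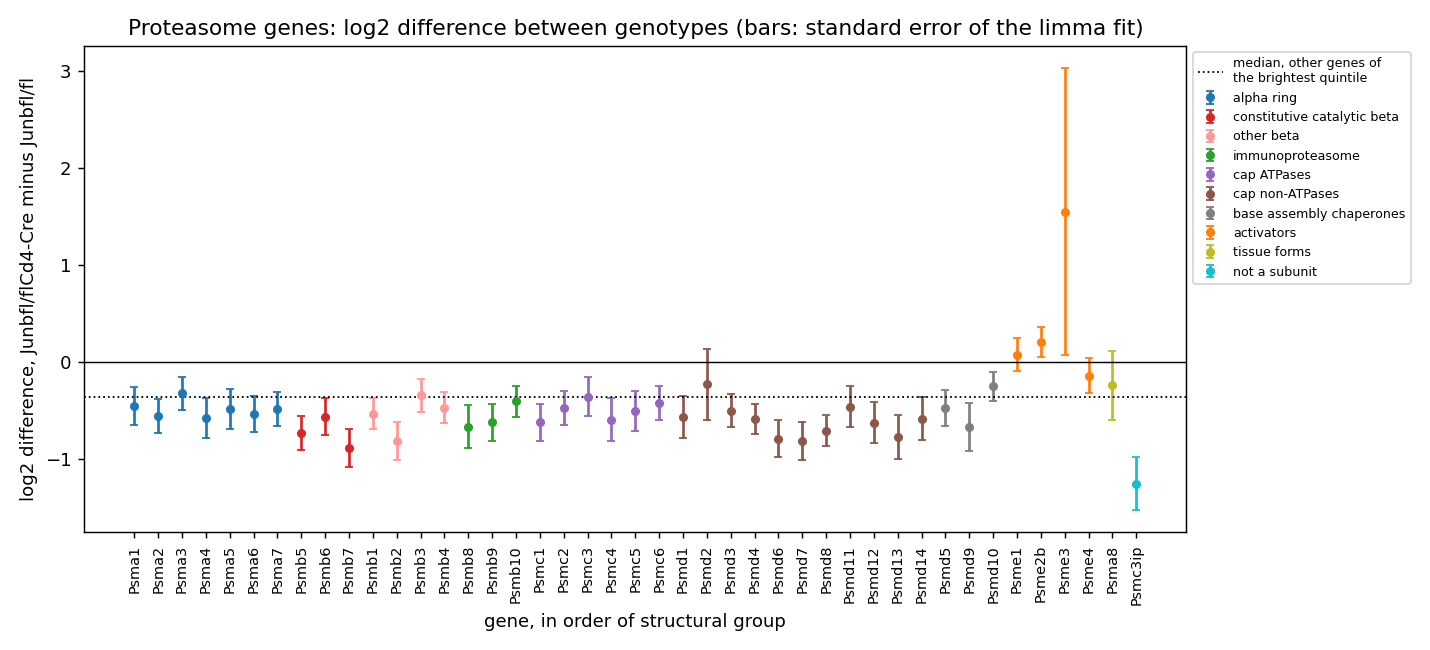
The plot gives for each of the 43 tested genes the log2 difference (vertical axis, arrays labelled Junbfl/flCd4-Cre minus controls) with its standard error, in the order of the structural groups, and the dotted line is the median of -0.36 over the other genes of the brightest quintile. Core and cap genes lie between -0.88 and -0.23, none past the adjusted threshold, with Psmd2 above 0 under quantile normalization. The activators lie above them on the scale used, Psme4 at -0.14 close to Psmd2 and Psme3 at 1.55 with a long bar. The other Psme3 probe, not plotted, was at -0.91, and Psme1 and Psme2b were below 0 with median scaling.

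The alpha ring, which gates the core, had all 7 of its genes lower, none called, with a median of -0.48. Of these 7, all in the brightest quintile, 2 had an unadjusted p under 0.05 by limma. Beside them 36.4% of the other genes of that quintile were lower at that threshold. Psma4 had the largest difference, with levels of 6.59 and 6.21 for controls 1 and 2, and of 5.93 and 5.73 for Junbfl/flCd4-Cre 1 and 2. Its difference was -0.57 ± 0.21 (adjusted p = 0.124 by limma). Psma3 had the smallest, with levels of 6.11 and 5.84 against 5.69 and 5.61 and a difference of -0.32 ± 0.17 (limma adjusted p = 0.223). In both genes each control lay above each array of the other genotype, as for 69.8% of the other genes of the brightest quintile.

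The constitutive catalytic subunits had the lowest median of the core and cap groups, -0.73. Psmb7, which carries the trypsin-like activity, was read by a probe whose ends lie at 38468966 and 38489385 of chromosome 2 (mm9), so that it crosses at least 1 intron. Its processed signals were 3033 and 2220 against 1131 and 963 on the other arrays, and its levels 4.33 and 3.94 against 3.24 and 3.25. The 2 Junbfl/flCd4-Cre values nearly coincide and the controls lie apart from each other and above them, with a difference of -0.88 ± 0.20 (limma adjusted p = 0.0675). Psmb5, the chymotrypsin-like subunit (chromosome 14, 55233161 to 55233220, mm9), had processed signals of 3743 and 2886 against 1569 and 1380. Its levels of 4.63 and 4.32 lay above those of 3.72 and 3.77, a difference of -0.73 ± 0.18 (limma adjusted p = 0.0752). Psmb6, the caspase-like subunit (chromosome 11, 70341093 to 70341152), had levels of 6.59 and 6.22 against 5.88 and 5.80 and a difference of -0.56 ± 0.19 (limma adjusted p = 0.114).

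The other constitutive beta subunits, which do not cut, had a median of -0.50. Psmb2 was lowest, with levels of 2.02 and 1.65 against 0.97 and 1.09 and a difference of -0.81 ± 0.19 (limma adjusted p = 0.0739). Psmb3 had the smallest difference, with levels of 6.40 and 6.12 against 5.89 and 5.95, at -0.34 ± 0.17 (adjusted p = 0.206). Psmb1 and Psmb4 lay between. For all 4 genes the controls lay above the other arrays, as for 69.8% of the other genes of the brightest quintile and 60.1% of the next.

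The immunoproteasome genes were lower too, with a median of -0.62 and none called. Psmb8 (chromosome 17, 34337771 to 34337830, mm9) had processed signals of 2749 and 2111 (controls) and of 1077 and 1186, and levels of 4.18 and 3.87 against 3.17 and 3.55. The arrays of each genotype were spread widely but did not meet, and the difference was -0.66 ± 0.23 (limma adjusted p = 0.113). Psmb9 (chromosome 17, 34319174 to 34319233) had levels of 3.99 and 3.63 against 3.16 and 3.22 and a difference of -0.62 ± 0.19 (limma adjusted p = 0.0982). Psmb10 (chromosome 8, 108459677 to 108459736) had levels of 4.95 and 4.75 against 4.41 and 4.48, the smallest difference of the immunoproteasome genes at -0.40 ± 0.16 (adjusted p = 0.139). Each of these genes, too, had its lowest control above its highest Junbfl/flCd4-Cre array, beside 69.8% of the other genes of the brightest quintile.

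Whether immunoproteasome and constitutive subunits moved apart was read within each array, where the scaling between arrays drops out. The mean log2 signal of Psmb8, Psmb9 and Psmb10 minus that of Psmb5, Psmb6 and Psmb7 was -0.81 and -0.74 in controls, against -0.70 and -0.52. Probes differ in brightness, so these values are no ratio of the subunits, and only their change between arrays can be read. The mean change was 0.16 and the values did not overlap, with an exact two-sided permutation p of 0.333, the smallest that 2 arrays against 2 allow. It was 0.08 without array 2 labelled Junbfl/flCd4-Cre and 0.25 without array 1 of that label. Of the single exchanges, Psmb10 minus Psmb7 was 0.62 and 0.81 in controls against 1.17 and 1.23, a change of 0.48 (exact permutation p = 0.333). Psmb8 minus Psmb5 changed by 0.07 and Psmb9 minus Psmb6 by -0.06, both with overlapping arrays (exact permutation p = 1 each). With Benjamini-Hochberg adjustment over the 6 such contrasts computed, the exact permutation p of 0.333 became 0.667.

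**Figure D2:**
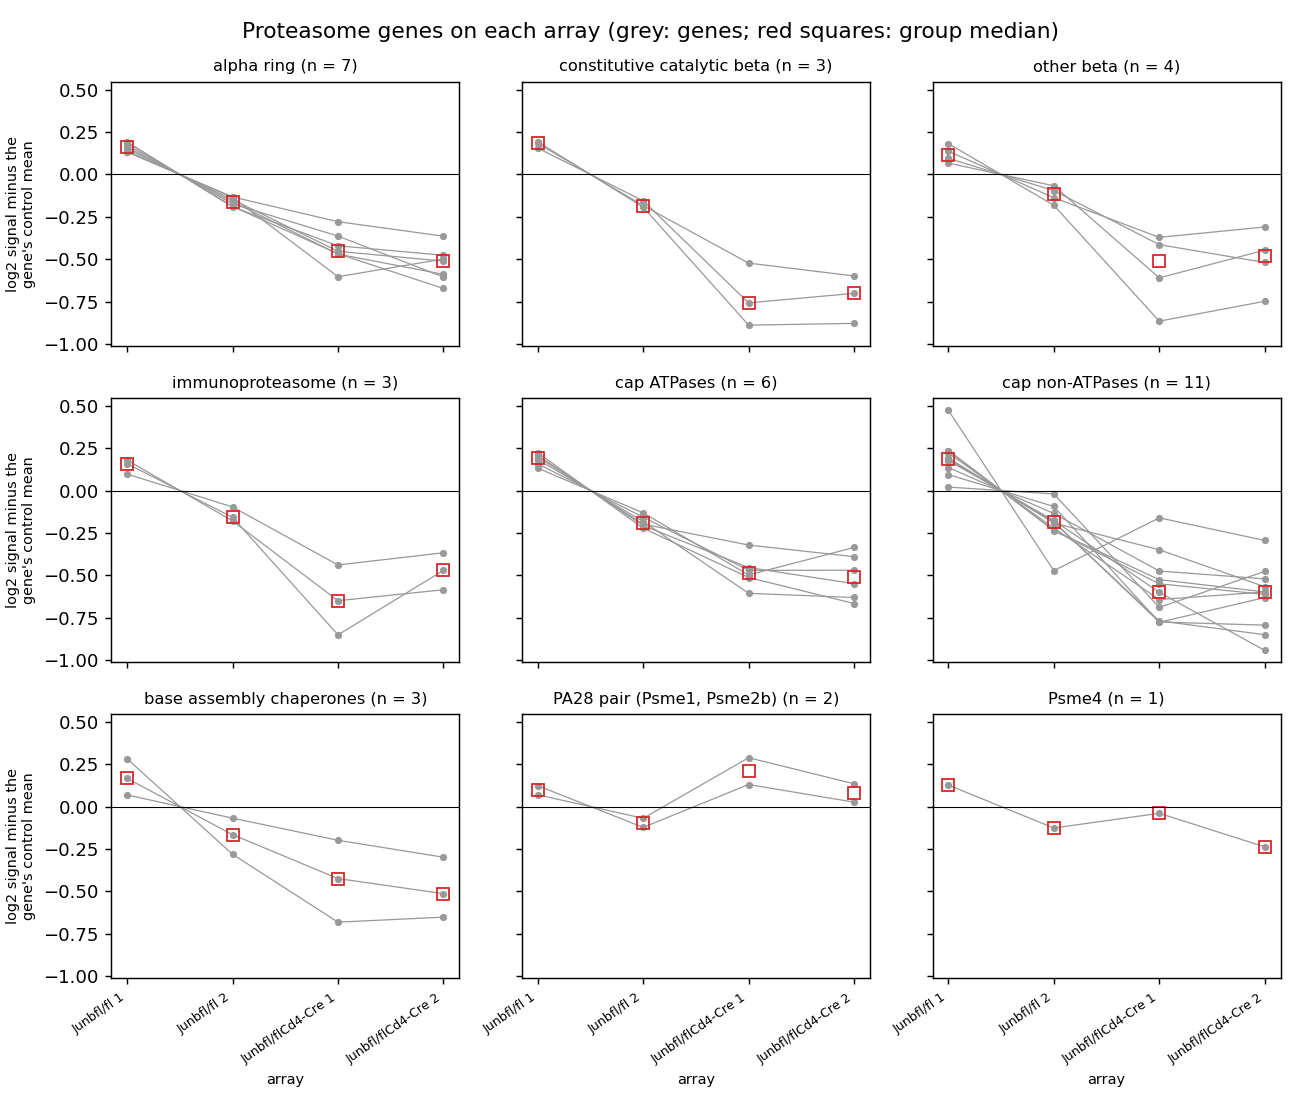
Each panel shows a structural group, with the 4 arrays on the horizontal axis and, on the vertical axis, each gene's log2 signal minus its own mean over the controls; grey lines join the points of 1 gene, the order of arrays has no meaning, and red squares are group medians. Control 1 lies above control 2 for all 34 core and cap genes, and for the PA28 pair and Psme4, whose direction turns with the scaling, the genotypes lie close together.

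In the cap, the ATPases that unfold substrates had a median of -0.49 and the other cap subunits one of -0.58, with 6 of 6 and 11 of 11 genes lower and none called. Psmc1 had the largest difference among the ATPases, with levels of 6.51 and 6.14 against 5.72 and 5.70, at -0.62 ± 0.19 (limma adjusted p = 0.0982). Psmc3 had the smallest, with 6.95 and 6.55 against 6.43 and 6.36, at -0.36 ± 0.20 (limma adjusted p = 0.243). Among the others, Psmd7, a scaffold of the lid that pairs with the deubiquitinase Psmd14, had levels of 4.0 and 3.63 against 3.04 and 2.96. Its difference was -0.81 ± 0.19 (limma adjusted p = 0.0736), and that of Psmd14 itself was -0.58. For all of these named genes the controls lay above the other arrays, beside 69.8% of the other genes of the brightest quintile.

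Psmd2, a cap subunit that docks ubiquitin-carrying shuttle proteins, was the only core or cap gene whose genotypes overlapped. Its levels were 5.04 and 4.10 on controls 1 and 2 and 4.41 and 4.27 on the others, so that 1 control was highest and the other lowest. The difference was -0.23 ± 0.37 (limma adjusted p = 0.652), and it was 0.25 without control 1, 0.09 under quantile normalization, whether after normexp background or without it. A second Psmd2 probe (chromosome 16, 20659542 to 20659601) read 412 and 277 against 229 and 140, a difference of -0.48. The mean cap signal minus the mean core signal without immunoproteasome genes was -0.43 and -0.50 in controls against -0.47 and -0.48, a change of -0.01 (exact permutation p = 1).

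The chaperones Psmd5, Psmd9 and Psmd10, which help assemble the base of the cap and leave it when it is complete, lay in the second brightest quintile of genes and had a median of -0.47, with 3 of 3 lower and none called. Psmd9 had levels of 1.52 and 0.96 against 0.56 and 0.59 and a difference of -0.67 ± 0.25 (limma adjusted p = 0.127). Psmd10, also known as gankyrin, had levels of 2.95 and 2.81 against 2.68 and 2.58 and a difference of -0.25 ± 0.15 (limma adjusted p = 0.27). Their controls again lay above the other arrays, beside 60.1% of the other genes of that quintile.

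The 4 activators had differences from -0.14 to 1.55, above those of all core and cap genes on the scale used, and none was called. With the median as scaling point Psme1 and Psme2b turned below 0, beside a core and cap median of -1.09. Psme1, which with Psme2 makes PA28, had processed signals of 8893 and 7177 (controls) and of 7056 and 5553, which after scaling are levels of 5.88 and 5.63 against 5.88 and 5.78. The genotypes overlapped and the difference was 0.08 ± 0.17 (limma adjusted p = 0.737), but -0.45 with the median as scaling point, -0.01 with normexp background and -0.04 without control 2. No probe carries the name Psme2. The probes that could read it are named Psme2b, after an intronless copy on chromosome 11, and signals of Psme2 and of that copy cannot be told apart here. The brighter of these probes (48758875 to 48758934, mm9) had levels of 6.91 and 6.77 against 7.13 and 6.97, the only tested member whose Junbfl/flCd4-Cre levels both lay above the controls (beside 36.6% of all genes). Its difference was 0.21 ± 0.16 (limma adjusted p = 0.348), and -0.32 with the median as scaling point.

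Read within each array, the mean of Psme1 and Psme2b minus the mean of the alpha ring was 0.31 and 0.44 in controls 1 and 2, against 1.02 and 0.99 in the other genotype. The change of 0.63, or 1.55-fold, was larger than the spread between the arrays of either genotype, with SDs of 0.09 (controls) and 0.02. The exact permutation p was 0.333, the smallest possible (0.667 adjusted over the 6 contrasts), and the contrast was chosen with these values known. It was between 0.56 and 0.69 under all alternatives run, and the scaling point of an array does not enter it.

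Psme4, the gene of PA200, a nuclear activator, had levels of 3.64 and 3.39 against 3.47 and 3.28, with overlapping genotypes. Its difference was -0.14 ± 0.18 (limma adjusted p = 0.573), but 0.15 under quantile normalization, 0.09 with normexp and quantile normalization and 0.11 as the mean of its 4 probes. Psme3, the gene of the nuclear activator PA28γ, was read by a pair of probes that went opposite ways. The brightest (chromosome 11, 101184289 to 101184348, mm9) had processed signals of 937 and 4098 for controls 1 and 2, and of 1393 and 13068 for Junbfl/flCd4-Cre 1 and 2. In both genotypes the array numbered 2 was the higher, and the arrays with that number lie in the same row of the slide. The difference of 1.55 ± 1.48 (limma adjusted p = 0.45) rests on 1 array, and it was -0.18 without Junbfl/flCd4-Cre array 2. The other Psme3 probe, whose ends lie at 101178390 and 101178649, read 300 and 204 against 108 and 87.9, a difference of -0.91 (adjusted p = 0.0788 when limma was run on every probe).

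The tissue forms were near background. Psma8, the alpha subunit of testis, had processed signals of 5.72 and 10.3 in controls and of 5.45 and 4.29 in the other genotype, of which 1 of 2 was well above background, so it passed the filter through the controls. Its difference was -0.24 ± 0.36 (limma adjusted p = 0.628), with overlapping arrays, and it was 0.22 with normexp background and 0.22 without control 2. Psmb11, the beta subunit of thymic cortical epithelium, read 19.3 on control 1, the one array on which it was well above background, and 1.48, 0.98 and 1.35 on the other 3, and was not tested. Psmc3ip, the recombination factor, had levels of 3.29 and 2.67 against 1.83 and 1.63 and the most negative difference among the 43 tested names, -1.25 ± 0.27 (limma adjusted p = 0.0656).

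Most of these genes are bright, and brightness moved with the difference over the whole array. When all genes were put into quintiles by mean level, 36 of the 43 tested members lay in the brightest quintile, 6 in the next and 1, Psma8, in the dimmest. The median difference of the genes that are not members was 0.92 in the dimmest quintile, then 0.42, -0.02, -0.27, and -0.36 in the brightest. In the brightest quintile 78.2% of those genes were lower, 69.8% without overlap and 36.4% at an unadjusted p under 0.05. The 34 core and cap genes were therefore set against genes of like brightness, and 31 of 34 lay below the median of their own quintile, by a median of -0.20 (from -0.54 to 0.13). Of the 32 in the brightest quintile, 22 lay inside the interquartile range of the others there (-0.61 to -0.06), 10 below it and 0 above. That distance below the brightest quintile was -0.08 without control 1 and -0.31 without control 2. The core and cap genes were also close to each other, with an SD of 0.15 over their differences against 0.65 over the other genes of the brightest quintile. No test was made of either value.

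**Figure D3:**
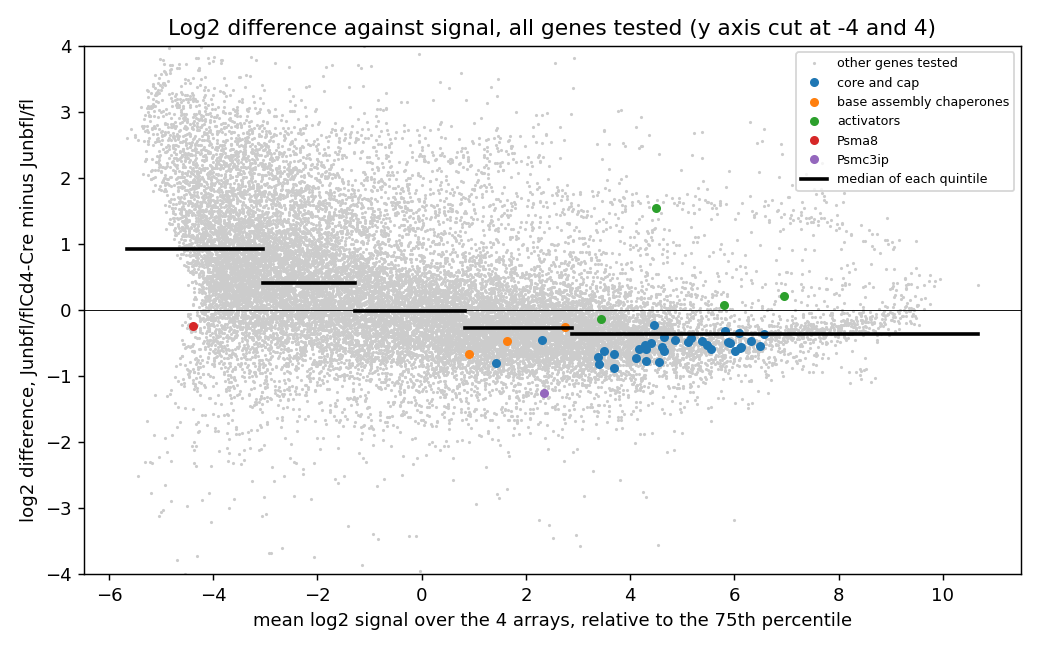
Each point is a gene, with its mean log2 signal over the 4 arrays (relative to the 75th percentile) on the horizontal axis and its log2 difference on the vertical axis, limited to -4 and 4, which leaves out 39 other genes; black bars are medians of each quintile of genes. The core and cap genes form a narrow band on the bright side, around a median of -0.56, while Psme3 lies at 1.55 above them and Psmc3ip at -1.25 below.

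The controls differed between themselves in the same genes. Control 1 was above control 2 for 34 of 34 core and cap genes, by a median of 0.36 (from 0.04 to 0.95 for Psmd2), against a median of 0.11 over the other genes of the brightest quintile. The arrays labelled Junbfl/flCd4-Cre differed by a median of 0.05, with array 1 the higher for 20 of 34. Comparing arrays of the same number gave a median difference of -0.69 for number 1 and -0.38 for number 2, and 33 of 34 genes were lower in both, beside 42.8% of all genes. In the other genes of the brightest quintile those medians were -0.40 and -0.31. The spread between the controls was thus of the order of the difference between genotypes, and it enters the standard errors above.

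Many genes were read by more than 1 probe, which repeats the measurement in the same RNA. Of the 83 probes 77 passed the filter, 66 of them lower and 11 higher, and 17 of the 23 genes with several such probes had them all on 1 side of 0. For core and cap genes, 54 of 54 probes designed on a RefSeq mRNA accession were lower on the scale used, with a median of -0.58. The 8 probes designed on other transcript accessions were lower for 4 and higher for 4, with a median of -0.07. Each was dimmer than the brightest probe of its gene. That of Psmd1 (chromosome 1, 87964118 to 87964177) read 66.4 and 58.3 against 81.6 and 57.9, a difference of 0.58, while the brightest Psmd1 probe read 5282 and 3645 against 2459 and 1978, a difference of -0.56. That of Psma3 differed by 0.47 and that of Psmb2 by 0.00. All 18 probes whose ends lie further apart in the genome than their 60 bases, and which therefore cross a splice junction, were lower, with a median of -0.64.

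**Figure D4:**
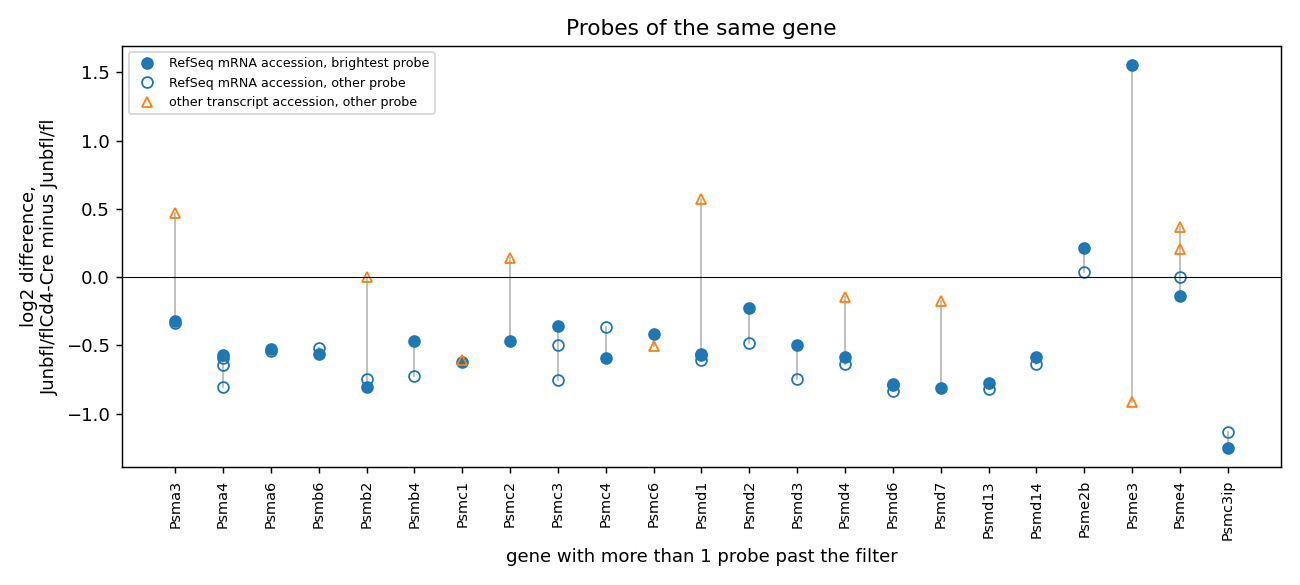
For each gene with more than 1 probe past the filter, the vertical axis gives the log2 difference of every probe; filled circles are the brightest probe, open circles other probes on RefSeq mRNA accessions and triangles probes on other transcript accessions. Circles of core and cap genes all lie below 0 on the scale used, with the brightest Psmd2 probe at 0.09 under quantile normalization, and triangles reach 0.58 for Psmd1.

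Genes that work with the proteasome were read from further lists. Of the cap subunits with other names, Adrm1 and Sem1 were measured, at -0.43 and -0.51, neither called. The factors that build or inhibit the core were all lower (6 of 6 measured, beside 49.5% of all genes), with a median of -0.78. Of them 0 were called and 5 had an unadjusted p under 0.05 by limma, beside 19.1% of all genes lower at that threshold. They lie in the brightest quintile and the next, where 78.2% and 71.6% of other genes were lower, 36.4% and 29.5% at that threshold. These factors include Psmg3 at -0.89 ± 0.17 (limma adjusted p = 0.0569), Psmg2 at -0.88 ± 0.19 (limma adjusted p = 0.0642) and Pomp, the maturation factor of the core, at -0.68 ± 0.17 (limma adjusted p = 0.0744). Shuttle and associated proteins were lower in 16 of 16 on the scale used, beside 49.5% of all genes. In the brightest quintile, which holds 9 of them, 78.2% of other genes were lower. Under quantile normalization 13 were lower, and Ufd1, Vcp and Zfand5 turned. The shuttle and associated genes had a median of -0.45 and none was called. They were led by the deubiquitinase gene Uchl5 at -1.01 ± 0.24 (limma adjusted p = 0.0743). Rad23b and Nploc4 followed at -0.71 and -0.44, Rad23b being at 0.16 in the authors' deposited log2 signals.

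The ubiquitin genes Rps27a and Ubb had differences of -0.20 and -0.07, and Ubb was at 0.10 in the authors' deposited log2 signals. Uba1, the main enzyme that activates ubiquitin, had processed signals of 19415 and 15007 against 6826 and 5469. The controls lay above the other arrays and the difference was -1.05 ± 0.18 (limma adjusted p = 0.0514), and that of Uba6 was -0.41. Of 6 factors tied to proteasome genes, 3 were lower and 3 higher, none called, against 5 lower with median scaling and 1 under quantile normalization. Nfe2l1, the factor named above, differed by 0.04 (-0.49 with median scaling), Nfe2l2 by 0.33 (-0.20 with median scaling), Ngly1, the enzyme that activates Nfe2l1, by -0.35, and Foxo4, a dim probe, by 0.73 ± 0.15 (limma adjusted p = 0.0633). The other genes of its quintile, the dimmest, had a median of 0.92, and Foxo4 was at 0.15 under quantile normalization, 0.20 with median scaling and 0.05 in the authors' deposited log2 signals.

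Genes of antigen presentation and of the interferon response were read beside the immunoproteasome. Of 11 antigen processing genes 7 were lower and 4 higher (11 lower with median scaling, 5 under quantile normalization), none called and 0 at an unadjusted p under 0.05 by limma, with a median of -0.24. Tap1, the neighbour of Psmb9, had processed signals of 1380 and 1308 against 816 and 725 and a difference of -0.38 ± 0.14 (limma adjusted p = 0.131). Nlrc5, a transcription factor of MHC class I and of Psmb9, differed by -0.66 ± 0.24 (limma adjusted p = 0.126) and Canx, a chaperone of the endoplasmic reticulum, by -0.48. Of 9 interferon-responsive genes 4 were lower and 5 higher, with a median of 0.24, which was -0.29 with median scaling, where 8 of the 9 were lower. It was also below 0 without control 1 (-0.11) and without array 2 labelled Junbfl/flCd4-Cre (-0.12). Gbp5, a guanylate-binding protein gene, was the only one called, with processed signals of 365 and 357 against 1169 and 785, a rise of 1.84 ± 0.18 (limma adjusted p = 0.0307), and the call was lost whenever 1 array was left out. Igtp, another interferon-induced GTPase gene, differed by -1.18 and Irf9 by 0.50 (-0.03 with median scaling).

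The tissue was checked against the labels. T cell markers were measured in 7 of 7 cases, 4 of them lower and 3 (Cd3d, Cd3g and Cd28) higher, with a median of -0.15 that was 0.14 under quantile normalization. Thy1 alone was called, as lower (limma adjusted p = 0.0418, but 0.0722 under quantile normalization). The summed processed signals of these markers, before scaling between arrays, were 96173 to 101980 on the controls and 55342 to 72035 on the others, whose 75th percentiles were lower too. All 4 Treg markers were measured. Ikzf2 was called higher, with processed signals of 69.9 and 26.7 against 801 and 716, a difference of 4.56 ± 0.50 (limma adjusted p = 0.0324). Ctla4 was called lower at -1.47 (limma adjusted p = 0.0479, but 0.0624 under quantile normalization). Il2ra was at -1.67 (limma adjusted p = 0.0653) and Foxp3 at -1.20 (limma adjusted p = 0.133), with Foxp3 at -0.60 without array 1 and -1.81 without array 2 labelled Junbfl/flCd4-Cre. An extraction label names colon, and of 10 markers of colon epithelium 4 were measured, with sums of 330 to 444 against 368 to 370. Most of each sum was Lgals4, at 269.4 and 392.6 against 319.9 and 320.1, with overlapping genotypes. On the scale used 3 of the 4 were higher and Epcam lower, none called. With median scaling 1 was higher, and under quantile normalization 2. Krt8 had the largest difference, 1.72 (limma adjusted p = 0.0546). It lies in the dimmest quintile, where the other genes had a median of 0.92. Cdh1, Krt20, Vil1, Cdx1 and Muc2 were well above background on no array, and Cdx2 on 1.

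Markers of other cells were higher on the arrays labelled Junbfl/flCd4-Cre on the scale used. Except for Itgam, Csf1r and Cd8b1, the measured ones lay in the 3 dimmest quintiles of genes. Of the genes there that are not members, 17.9%, 28.3% and 51.2% were lower, from the dimmest quintile up. The median differences of those genes were 0.92, 0.42 and -0.02. B cell markers were higher in 6 of 6 measured of 7 (5 with median scaling or quantile normalization, where Pax5 turned), with Ms4a1 and Ebf1 called (Ebf1 not under quantile normalization, limma adjusted p = 0.110) and sums of 207 to 542 in controls against 497 to 874. Myeloid markers were higher in 6 of 6 measured of 8 (5 with median scaling, where Cd68 turned), none called, with sums of 2564 to 3960 against 3267 to 7306. Most of each sum was Itgam, at 3582 and 1941 against 6558 and 2121, with overlapping genotypes. Stroma markers were higher in 3 of 3 measured of 5, with sums of 18.6 to 26.6 against 41.3 to 68.4. Col1a1 and Dcn were called, but passed the filter only through the arrays labelled Junbfl/flCd4-Cre, and both calls were lost under quantile normalization (limma adjusted p = 0.0980 and 0.0544). With normexp background the stroma median was 0.50. When all 4 arrays had to be well above background, 5 B cell markers, 4 myeloid markers and 1 stroma marker, Col1a2, were left, all higher. The rest of those counted above had passed the filter through 1 genotype only. Of 4 NK and CD8 markers Cd8b1 alone was measured, at 359 to 431 against 418 to 437. The part of other cells in the proteasome differences was not tested.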

How the data were processed

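RNA was measured on 4 arrays, 2 per genotype, all on 1 slide read in 1 scan. Per the file headers, Agilent Feature Extraction 11.5.1.1 gave each spot a mean intensity, a local background intensity, a processed intensity (background removed, with detrending inside each array and no scaling across arrays) and flags. The authors also deposited log2 signals, log2 differences, p-values and limma's t and log odds scores per accession. The steps behind those signals are not given in the sources used here. They served only as an alternative.

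Each array held 62976 spots, 59305 of them not controls. Between 108 and 215 outlier spots per array were left out, none was saturated, and 59.3% to 66.3% were well above background. Of 56605 probes, 295 lacked a usable spot and 56310 were used; names came from the files, updated through RefSeq (32831 probes by accession, 517 by synonym). The processed intensity was put on the log2 scale, minus the array's 75th percentile over probes. Genes were fitted without covariates by lmFit and eBayes of limma 3.58.1 under R 4.3.3, on the brightest probe of each. Benjamini-Hochberg adjustment ran over the 22474 genes tested, with a call at 0.05. Contrasts within arrays were tested by exact permutation, and their p-values were adjusted with scipy 1.17.1. The number of arrays limits the precision. Arrays correlated across genes at 0.982 (controls), 0.978 (Junbfl/flCd4-Cre) and 0.933 to 0.955 (between genotypes).

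The rule named every immunoproteasome gene and its counterpart, the activators, the tissue forms, called members, and the highest and lowest of each other group; of further lists, the 3 with the smallest p. Others named (Psmd1, Psmd14, Nfe2l1, the ubiquitin gene Ubb, second probes) were chosen after their values were seen. Members, lists and contrasts were chosen with earlier results of these data known. Alternatives were other scalings, background corrections, filters, probe rules, the authors' values, a replicate block and leaving out each array. The script was tested on simulated data.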

Additional observations from a re-analysis of the deposited data

How the results depend on the processing

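Over all genes 1901 were called, 16.9% of them lower; this share was 79.0% of 9414 with the array median as scaling point, 52.5% of 7224 with normexp background, and 27.3% of 618 in the authors' log2 signals. Median scaling moved the median of all genes from 0.01 to -0.52. The count of tested members called, with Psmc3ip among those tested, was 0. It was 36 with median scaling, all lower and 32 of them core or cap genes, beside 33.1% of all genes and 61.7% of the brightest quintile called lower. With normexp background it was 24, all lower and 23 of them core or cap genes, beside 16.9% and 44.5%. With the replicate block it was 5, all lower: Psmb7, Psmd13, Psmd6 and Psmd7, and Psmc3ip, which is no subunit. Beside them 30.5% of all genes were called, 9.3% as lower, and 15.6% of the brightest quintile were called lower. The count of members called was 0 under every other alternative run. Without any 1 array no gene of the array was called, the calls of Gbp5 and of the named markers included, and between 1 and 26 members, against 19, had an unadjusted p under 0.05. Deviations of same-numbered arrays correlated at 0.499 over all genes and 0.837 over the members, but 2 pairs are too few to say that the numbers pair the samples. The value over the members includes Psme3, where array 1 minus array 2 was -2.19 in controls and -3.47 in the other genotype. A value without Psme3 is not given. Among the core and cap genes array 1 was the higher for 34 of 34 in controls, but for 20 of 34 in the other genotype. The median of the members was -0.53, and -0.24 with quantile normalization, -1.06 with median scaling, -0.21 with normexp and quantile normalization, -0.27 in the authors' signals and -0.69 to -0.37 without 1 array. The median of the core and cap genes was -0.56, and in the same order -0.24, -1.09, -0.23 and -0.28, and -0.71 to -0.37 without 1 array. Lower core and cap genes numbered 33 or 34 throughout. The PA28 contrast was 0.63, 0.56 with the mean of all probes and 0.56 to 0.69 without 1 array. The immunoproteasome contrast was 0.08 (without Junbfl/flCd4-Cre array 2) to 0.25 (without array 1) without 1 array. Directions turned as follows. With median scaling, Psme1 was -0.45, Psme2b -0.32, Nfe2l1 -0.49, Nfe2l2 -0.20 and Irf9 -0.031. With normexp background, Psma8 was 0.22, Psme1 -0.012 and Nfe2l1 -0.045. With quantile normalization, Psmd2 was 0.094 and Psme4 0.15, and after normexp 0.094 and 0.085. With the mean of all probes, Psme4 was 0.11. In the authors' signals, Psme4 was 0.00045, Rad23b 0.16 and Ubb 0.10. Leaving out 1 array in turn gave -0.69 to 0.22 for Psma8 (above 0 without control 2), -0.70 to 0.25 for Psmd2 (above 0 without control 1), -0.045 to 0.20 for Psme1 (below 0 without control 2), -0.18 to 3.29 for Psme3 (below 0 without Junbfl/flCd4-Cre array 2), -0.11 to 0.19 for Nfe2l1 (below 0 without control 1 or Junbfl/flCd4-Cre array 2) and -0.16 to 0.030 for Ubb (above 0 without control 1). A slide or scan block was not run, since 1 slide and 1 scan held all arrays. The cause of these changes was not tested.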
